A study of Homo sapiens with 61 samples.

Results

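Trimethylation of lysine 4 on histone H3 (H3K4me3) was compared in wild-type (WT) U2OS cells between 3 h and 1 h after UV irradiation, to see at which promoters, gene bodies and intergenic regions the mark kept spreading and where it returned between these times. The members were all libraries that the labels give as H3K4me3 ChIP-seq of WT cells at 3 h (n = 3) and at 1 h (n = 3), 6 of the 61 samples of the series, of which 37 have a peak list and 18 of those are H3K4me3 lists. U2OS is a human osteosarcoma line. The cells of both groups had received 20 J/m2 of UV-C light and were left to recover for 3 h or 1 h before fixation with formaldehyde. Unirradiated WT libraries (n = 3) and ASH1L knockout libraries (ALKO in the labels) at 3 h, at 1 h and without UV (n = 3 each) are given beside them. The knockout cells were made in U2OS with CRISPR/Cas9 and grown from individual colonies. The labels call the libraries biological replicates and do not say more about how they were separated.

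H3K4me3 is deposited by the SET1 and MLL (KMT2) enzyme complexes on nucleosomes that flank active and CpG-rich start sites, and demethylases of the KDM5 family remove it. Bivalent promoters of developmental genes carry it together with a repressive mark. UV-C light leaves pyrimidine dimers that nucleotide excision repair cuts out, with XPC as the sensor of damage outside transcribed strands, and ASH1L is a histone methyltransferase of the SET domain family. In a mixture of cells, a larger share of marked cells and more mark per cell cannot be told apart.

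A peak is a stretch in which the library's reads exceeded a pooled input control, not the library's own input, at p of 0.01 by the peak caller, and its fold enrichment is the read pileup at the summit over the local control rate. The WT lists held 137372, 119986 and 141258 peaks at 3 h, against 111335, 106413 and 142688 at 1 h. The background depth, solved from the deposited p and fold enrichment of the peaks, was 4.28, 2.57 and 4.34 reads per position in the 3 h libraries, against 3.65, 3.62 and 4.40 in the 1 h libraries, so the second 3 h library was the shallowest of the 18. Of 12 mesenchymal and osteoblast markers, 9 had a promoter peak in all 6 libraries (summed 27.8 to 29.3 kb at 3 h, against 28.7 to 29.6 kb at 1 h) and ALPL, COL1A2 and TWIST1 were at 0, while all 6 blood markers were at 0. The epithelial markers summed to 3.96 to 4.64 kb at 3 h, against 4.27 to 4.73 kb at 1 h, with CDH1, KRT14, CLDN3 and GRHL2 at 0. The ASH1L promoter carried a peak in every knockout library too, so the lists do not check the deletion.

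Every peak was put in 1 class by overlap: promoter (2 kb or less from where transcription of a protein-coding gene begins), gene body (all of the gene that lies more than 2 kb downstream of that site) or intergenic. Covered DNA was instead split by base, so the part of a promoter peak past 2 kb counts as gene body or intergenic DNA. In all 3 classes the DNA under peaks differed by less between 3 h and 1 h than between libraries of the same time. Within promoters, peaks covered 31.4, 30.1 and 31.9 Mb at 3 h, against 31.5, 32.2 and 31.8 Mb at 1 h, a ratio of 0.979 (exact permutation test, two-sided, p = 0.4, where 0.1 is the smallest p that 3 against 3 libraries allow). Within gene bodies, peaks covered 44.7, 32.4 and 48.4 Mb at 3 h, against 35.0, 35.1 and 45.2 Mb at 1 h (ratio 1.08, exact permutation p = 0.9). Within intergenic DNA, peaks covered 50.6, 34.7 and 52.0 Mb at 3 h, against 33.6, 34.1 and 47.6 Mb at 1 h (ratio 1.19, exact permutation p = 0.2). The second 3 h library was the lowest of its group in every class, and without it the ratios were 0.995 for promoters, 1.22 for gene bodies and 1.35 for intergenic DNA. The ASH1L knockout gave ratios of 0.967, 1.01 and 1.09 over the same classes (exact permutation p = 0.2, 1 and 0.6).

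**Figure D1:**
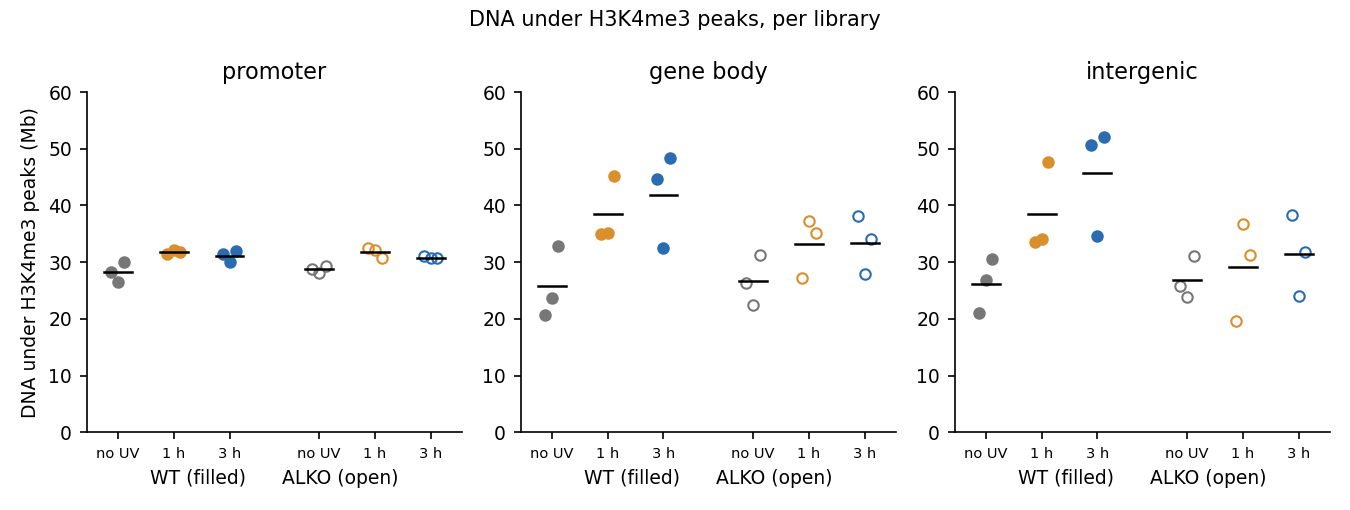
DNA under H3K4me3 peaks in each library (points, Mb) by class, with the mean of the 3 libraries as a line, for WT and ASH1L knockout cells. Promoter coverage lay between 30.1 and 32.2 Mb in all 6 irradiated WT libraries, whereas the intergenic values of WT cells spread between 33.6 and 52.0 Mb and overlapped between 3 h and 1 h.

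The fold enrichment of promoter peaks was lower in every 3 h library than in every 1 h library, at the smallest p the design allows. The median fold enrichment of promoter peaks was 9.15, 8.97 and 8.41 at 3 h, against 12.2, 13.8 and 9.68 at 1 h, with no overlap (ratio 0.752, exact permutation p = 0.1). In the knockout the ratio was 0.638 (exact permutation p = 0.1). Their median width was 2174 ± 135 bp at 3 h and 2352 ± 117 bp at 1 h (SD, n = 3 each, exact permutation p = 0.3). Outside promoters the peaks of high fold enrichment were more numerous at 3 h. Gene bodies held 5959 ± 370 peaks of at least 5-fold enrichment at 3 h and 4878 ± 330 at 1 h (ratio 1.22), and intergenic DNA held 7705 ± 514 and 6126 ± 476 (ratio 1.26). In both classes all 3 libraries at 3 h lay above all 3 at 1 h (exact permutation p = 0.1), and in the knockout the ratios were 0.845 and 0.819 (exact permutation p = 0.2 each). Fold enrichment is taken over a local control that also differed between the times. The median control over background at tested promoters was 2.45 at 3 h and 2.29 at 1 h. It was 1.42 and 1.56 for gene bodies, and 1.05 and 1.14 for intergenic regions. The part of the control in these differences was not tested.

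Around start sites the mean difference between the times was largest just upstream of the start. At 150 bp before the start site, 57.8 ± 2.25% of start sites lay under a peak at 3 h and 61.3 ± 1.61% at 1 h (SD, n = 3 each), the largest difference within 5 kb. Only 2 of the 100 bins of 100 bp did not overlap between the times, those 350 and 250 bp upstream, with 59.8% and 59.1% at 3 h, against 61.2% and 61.2% at 1 h. Within gene bodies the share of DNA under peaks 2 to 5 kb past the start was 13.7% at 3 h and 14.2% at 1 h (ratio 0.962, exact permutation p = 0.7), and beyond 200 kb it was 2.48% at 3 h and 2.11% at 1 h (ratio 1.17, exact permutation p = 0.5). Neither end of the gene body differed beyond the spread between libraries.

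**Figure D2:**
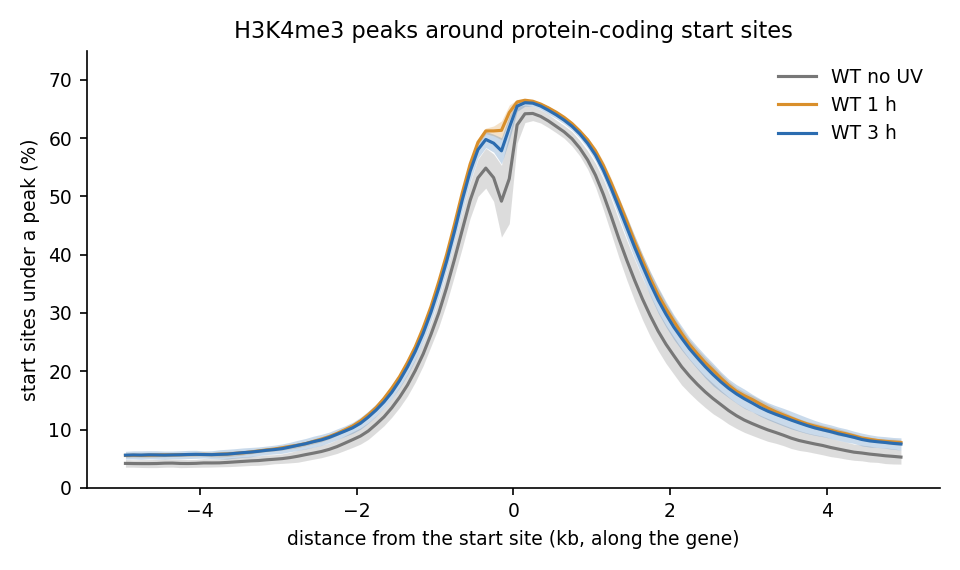
Share of 19970 protein-coding start sites under an H3K4me3 peak (percent, mean of 3 libraries with shading of 1 SD) by distance from the start site in bp, in WT cells at 3 h, at 1 h and without UV. The 3 h line runs below the 1 h line upstream of the start site, by at most 3.51 points at 150 bp, and the shaded bands overlap over most of the window.

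Single promoters were tested by the kb under peaks in a 4 kb window around the start site (limma over all 18 libraries, Benjamini-Hochberg adjustment over 14745 promoters with a peak in at least 3 libraries). Adjusted p was under 0.05 for 17 promoters that rose at 3 h over 1 h (0.115% of those tested) and 28 that fell (0.19%). The unadjusted p was under 0.05 for 276 and 1023. The median change over all promoters was -0.042 kb. In a fit of the 6 irradiated WT libraries alone, limma called 0 in either direction, with 289 and 1275 at an unadjusted p under 0.05. Without the second 3 h library 39 rose and 12 fell, and without 1 h replicate 1, 2 or 3 there were 9, 11 and 20 rises and 8, 13 and 42 falls. Of the called promoters, 2 of the 17 and 5 of the 28, SLC35D3 among these, had a peak only in the group where they were high, and these could pass the filter only because they differed.

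The 28 promoters that fell were of 2 kinds. At 9 of them no 3 h library had a peak: CHI3L2, SLC35D3, PTCHD3, NACAD, LBX1, DMBT1, RGS11, FCHO1 and CPXCR1. At 16 every irradiated WT library showed a peak and its covered length was shorter at 3 h, among them SCAMP1, BEND5, CDKN1A, LIG1, NKX2-2 and LATS2. The other 3, PRDM14 and ELL3 among them, had a peak in some of the 3 h libraries. The falling promoters averaged 1.28 kb at 3 h, 1.87 kb at 1 h and 1.26 kb without UV. The change from no UV to 1 h and the change from 1 h to 3 h share the 1 h libraries, so a return of this kind is partly fixed by the shared values.

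SLC35D3, a member of the nucleotide-sugar transporter family, was marked at 1 h alone. Its window (GRCh38 chr6:136920301-136924301) held 0, 0 and 0 kb at 3 h, against 0.872, 0.717 and 0.915 kb at 1 h, and 0 kb in all 3 unirradiated WT libraries. No other H3K4me3 list of the series had a peak there. The difference was -0.83 kb (SE 0.0644, limma adjusted p = 1.34e-05). It is 1 of the 5 promoters that passed the filter only through the group where they were high, and so had to differ. PRDM14, a transcription factor of pluripotent and germ cells (chr8:70069252-70073252), held 0, 0.319 and 0 kb at 3 h, against 1.15, 0.807 and 1.43 kb at 1 h, and none without UV or in any knockout library (-1.02 kb, SE 0.12, adjusted p = 0.00151). Both promoters were marked in every WT library at 1 h and in at most 1 at 3 h.

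NPY, which encodes a neuropeptide, held 0.808, 0.212 and 0.236 kb at 3 h, against 1.27, 1.51 and 0.920 kb at 1 h (-0.82 kb, adjusted p = 0.0266). The chitinase-like gene CHI3L2 held no peak at 3 h, against 0.707, 0.917 and 1.38 kb at 1 h (-1.0 kb, adjusted p = 0.0440). PTCHD3 held none at 3 h, against 0.536, 0.750 and 0.807 kb at 1 h (-0.70 kb, adjusted p = 0.00596). None of the 3 genes overlapped between the times.

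CDKN1A encodes p21, the p53-induced inhibitor of cyclin-dependent kinases. Its window (chr6:36676714-36680714) held 2.07, 2.09 and 1.91 kb at 3 h, against 2.52, 2.53 and 2.63 kb at 1 h, and 2.0, 1.82 and 2.19 kb without UV. The 3 h libraries thus lay below all 1 h libraries and within the unirradiated range (-0.54 kb, SE 0.0939, adjusted p = 0.0223). In the knockout it held 1.74, 1.77 and 1.77 kb at 3 h, against 2.12, 1.99 and 1.85 kb at 1 h (adjusted p = 0.276). The covered length fell while the height did not: the log2 difference in fold enrichment was 0.08, and after centring per library it was called higher at 3 h (log2 difference 0.40, adjusted p = 0.0220 by limma).

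LIG1, the DNA ligase that seals replication and repair patches, shares its window with ZSWIM9 and held 2.42, 2.42 and 2.62 kb at 3 h, against 3.07, 2.92 and 3.04 kb at 1 h (-0.53 kb, adjusted p = 0.0148). LATS2, a kinase of the Hippo pathway, held 2.07, 2.07 and 2.07 kb at 3 h, against 2.43, 2.49 and 2.40 kb at 1 h (-0.37 kb, adjusted p = 0.0240). In both promoters the peak stayed and every 3 h library lay below every 1 h library. The homeobox gene NKX2-2 held 3.11, 3.17 and 3.16 kb at 3 h, against 3.88, 3.68 and 3.67 kb at 1 h (adjusted p = 0.0312), and the vesicle gene SCAMP1 held 2.98, 3.13 and 3.06 kb, against 3.6, 3.92 and 3.77 kb at 1 h (adjusted p = 0.0393). BEND5 and FOXI2, a forkhead factor, fell by 0.62 and 0.63 kb (adjusted p = 0.0265 and 0.0393). The SCAMP1 call was lost when any 1 of the 6 libraries was left out and held in 4 of 16 alternatives, and that of FOXI2 held in 3 of 15.

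Of the 17 promoters that rose, 9 were marked in each of the 6 irradiated WT libraries and 4 had no peak at 1 h (CD247, RNF32, RALYL and APLNR). CXCL8 encodes the neutrophil chemokine interleukin 8, a target of NF-kappaB and AP-1. Its window (chr4:73738569-73742569) held 2.09, 2.22 and 2.41 kb at 3 h, against 0.773, 1.39 and 1.3 kb at 1 h, and 0.368, 0 and 0.326 kb without UV. The difference was 1.08 kb (SE 0.157, adjusted p = 0.01). It was the only 1 of the 17 that was also called in the knockout, where the window held 2.32, 2.49 and 2.38 kb at 3 h, against 1.32, 1.51 and 1.18 kb at 1 h (1.06 kb, adjusted p = 0.0115, with an adjusted p of 1 for the difference between the genotypes). Its height rose as well, with fold enrichments of 12.3, 10.9 and 8.24 at 3 h, against 3.22, 4.33 and 3.52 at 1 h (log2 difference 1.5, adjusted p = 0.00502).

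The stretches from 250 bases before to 50 after the start site (RefSeq, GRCh38.p14, 5′ to 3′ on the gene's strand) are shown for CXCL8, which rose, and CCL20, which had a peak at 3 h and none at 1 h, with capitals on the AP-1 site TGACTCA, the kappaB heptamer AATTTCC, the kappaB decamer and TATAAA. CDKN1A, which drew in, has the GC box GGGCGG in capitals. For SLC35D3, marked at 1 h alone, and CD247, marked in WT cells at 3 h alone, capitals mark each CpG.
CXCL8: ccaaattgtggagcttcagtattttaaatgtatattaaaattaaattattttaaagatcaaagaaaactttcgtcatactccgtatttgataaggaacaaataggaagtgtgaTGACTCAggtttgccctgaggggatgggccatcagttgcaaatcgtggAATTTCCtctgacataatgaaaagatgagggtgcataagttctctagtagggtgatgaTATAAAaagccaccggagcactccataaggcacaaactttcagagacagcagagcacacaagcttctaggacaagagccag
CCL20: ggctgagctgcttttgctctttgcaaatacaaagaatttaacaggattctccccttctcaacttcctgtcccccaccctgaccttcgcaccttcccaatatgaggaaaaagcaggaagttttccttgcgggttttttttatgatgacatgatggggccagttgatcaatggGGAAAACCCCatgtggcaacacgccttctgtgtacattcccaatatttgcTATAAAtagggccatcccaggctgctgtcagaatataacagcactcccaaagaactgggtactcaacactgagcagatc
CDKN1A: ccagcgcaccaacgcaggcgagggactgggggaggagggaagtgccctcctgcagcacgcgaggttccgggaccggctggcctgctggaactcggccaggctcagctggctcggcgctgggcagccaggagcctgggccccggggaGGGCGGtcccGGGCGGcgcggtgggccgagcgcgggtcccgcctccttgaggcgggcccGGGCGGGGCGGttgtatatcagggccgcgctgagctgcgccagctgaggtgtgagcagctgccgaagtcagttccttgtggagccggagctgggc
SLC35D3: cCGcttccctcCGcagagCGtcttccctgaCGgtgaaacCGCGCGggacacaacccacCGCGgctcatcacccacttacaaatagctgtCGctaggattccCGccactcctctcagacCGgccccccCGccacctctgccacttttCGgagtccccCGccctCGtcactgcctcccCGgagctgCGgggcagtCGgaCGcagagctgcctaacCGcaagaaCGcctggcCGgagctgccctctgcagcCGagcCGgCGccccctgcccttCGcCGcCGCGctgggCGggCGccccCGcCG
CD247: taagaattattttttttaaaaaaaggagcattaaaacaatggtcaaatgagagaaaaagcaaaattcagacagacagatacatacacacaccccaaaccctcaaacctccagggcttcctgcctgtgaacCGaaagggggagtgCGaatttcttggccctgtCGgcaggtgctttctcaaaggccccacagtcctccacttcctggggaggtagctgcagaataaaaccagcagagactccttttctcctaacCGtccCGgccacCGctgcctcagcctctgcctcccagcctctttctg
They lie at chr4:73740319-73740618 (plus strand), chr2:227813592-227813891 (plus), chr6:36678464-36678763 (plus), chr6:136922051-136922350 (plus) and chr1:167518480-167518779 (minus). CXCL8 held 1 AP-1 site, 1 heptamer and 1 TATAAA, and CCL20 held 1 decamer and 1 TATAAA. On either strand TGACTCA was in 4.96% of the 34943 RefSeq promoter stretches of this length, AATTTCC in 4.22%, the decamer, which can overlap the heptamer, in 5.90%, TATAAA in 11.6% and GGGCGG, of which CDKN1A held 4, in 44.9%. A match is only a run of letters and was not tested as a site. CpG content was not tested: the median was 9 CpG per 300 bases (range 3 to 41) at the 17 promoters that rose and 26.5 (range 1 to 43) at the 28 that fell, beside 27 over all 14745 tested. SLC35D3 held 34 and CD247 6.

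ZNF722, a zinc finger gene (chr7:63996849-64000849), showed the largest rise, with 3.35, 2.42 and 3.12 kb at 3 h, against 1.23, 0.661 and 1.61 kb at 1 h, and 0.417, 0.513 and 0.590 kb without UV (1.80 kb, SE 0.272, adjusted p = 0.01). CALCB, the beta calcitonin gene-related peptide (chr11:15071593-15075593), held 2.44, 2.09 and 2.24 kb at 3 h, against 1.34, 0.985 and 0.821 kb at 1 h, and 0.801, 0.511 and 1.57 kb without UV (1.21 kb, SE 0.200, adjusted p = 0.0148). In the knockout CALCB held 0, 0 and 0 kb at 3 h, against 0.707, 0.797 and 0.898 kb at 1 h, and the change differed between the genotypes (2.01 kb, adjusted p = 0.0219). Both rose in WT cells without overlap, and CALCB had no peak in the knockout at 3 h.

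POU3F4, a POU-domain factor of brain and inner ear on chromosome X, held 1.27, 0.555 and 0.826 kb at 3 h, against 0, 0 and 0.290 kb at 1 h (0.79 kb, adjusted p = 0.0148), and had no peak in any unirradiated WT library. CD247, the zeta chain of the T-cell receptor, held 0.550, 0.538 and 0.285 kb at 3 h and none at 1 h. PLD4, of the phospholipase D family, held 1.35, 1.09 and 1.89 kb at 3 h, against 0.469, 0.547 and 0.628 kb at 1 h (0.89 kb, adjusted p = 0.0148). None of these 3 promoters had a peak in an irradiated knockout library. ULBP3, a stress-induced ligand of natural killer cells, held 1.84, 1.79 and 2.31 kb at 3 h, against 1.23, 1.52 and 1.13 kb at 1 h (0.68 kb, adjusted p = 0.0224). MCF2L, a guanine nucleotide exchange factor, rose by 0.69 kb in covered length (adjusted p = 0.0224), but its log2 fold enrichment went the other way (-0.68) and the call held in 6 of 16 alternatives. ZNF512 rose by 0.78 kb, the salivary gene BPIFA2 by 1.06 kb and MSANTD5 by 1.28 kb (adjusted p between 0.01 and 0.0223). UGT3A1, NKX2-6 and CLEC4M complete the 17. Of the 17, 8 had no peak in any irradiated knockout library.

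**Figure D3:**
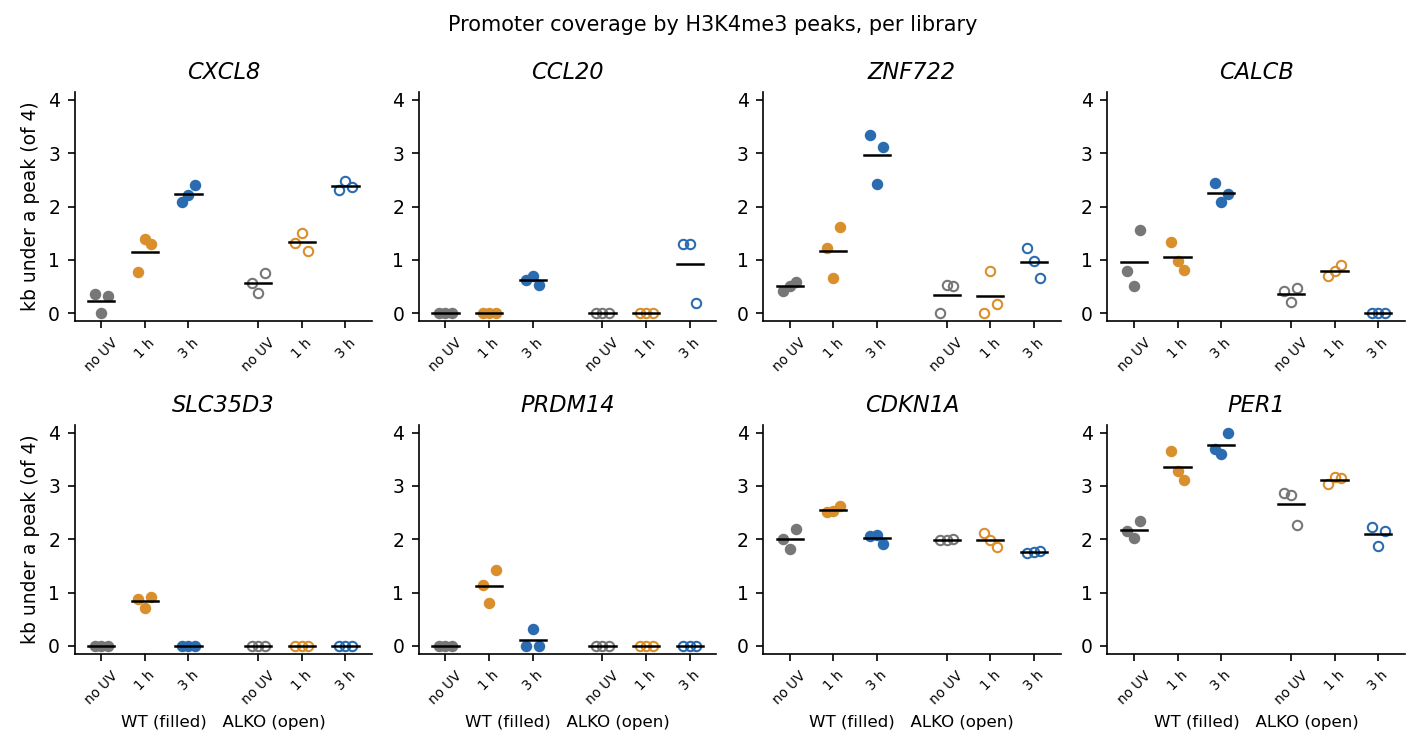
Kilobases under H3K4me3 peaks in the 4 kb promoter window, per library, for 8 promoters in WT (filled) and ASH1L knockout cells (open) at 3 h, at 1 h and without UV. CXCL8 rose in both genotypes, CALCB was at 0 in the 3 knockout libraries at 3 h, and SLC35D3 had a peak in the 3 WT libraries at 1 h alone.

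Height was tested at the same promoters. The highest fold enrichment rose at 126 promoters (0.855% of 14745) and fell at 1301 (8.82%), and 16 of the 17 rising and 26 of the 28 falling promoters moved the same way as their covered length, 7 and 9 of them called. Centred per library, the split turned, with 1588 higher (10.8%) and 894 lower (6.06%). The pileup over background, which does not use the control, rose at 1 promoter (CXCL8, 0.00678%) and fell at 11 (0.0746%). Few promoters were called by pileup, but its median log2 change was -0.135 and 8.93% of promoters were positive. For the fold enrichment the median was -0.210 and 27.3% were positive. The counts of calls thus differed between the measures, and the reason was not tested.

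The local control, which came from pooled input, differed between the times. At summits that lists share, the control rate of libraries of the same condition was within 10% at 97.7 to 100% of 201 to 297 positions, and that of a 3 h and a 1 h library at 26.6 to 38.4% of 184 to 249, so the time and the control profile cannot be told apart. At promoters the control over background was 2.57, 2.48 and 2.39 in the 3 h libraries, against 2.29, 2.34 and 2.29 in the 1 h libraries (medians over 13906 promoters). It was lower at 3 h where features rose: medians of 1.19 at 3 h and 1.53 at 1 h for promoters, 1.14 and 1.83 for gene bodies, and 1.09 and 1.64 for intergenic regions. It was higher at 3 h where they fell, with medians of 2.79 at 3 h and 2.29 at 1 h for promoters, 3.45 and 2.36 for gene bodies, and 2.71 and 2.29 for intergenic regions. A control rate at both times was available for 13 of 17 rising and 19 of 28 falling promoters. For gene bodies these counts were 41 of 53 and 10 of 16, and for intergenic regions 667 of 1319 and 63 of 214. The part of the control in the calls was checked only in a limited way. When peaks were kept only if they passed at the higher of both control rates, 14 of the 17 rising and 23 of the 28 falling promoters were still called, 29 of 53 and 10 of 16 gene bodies, and 1049 of 1319 and 176 of 214 intergenic regions. Whole peaks were kept or dropped and their edges stayed, so the length of a strong peak could not respond. Peaks in 10 kb bins without rates from both times were left as they were. Calls that held therefore do not show that the control had no part. At CXCL8 the control was at the background level of 1.0 in all 6 libraries.

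**Figure D4:**
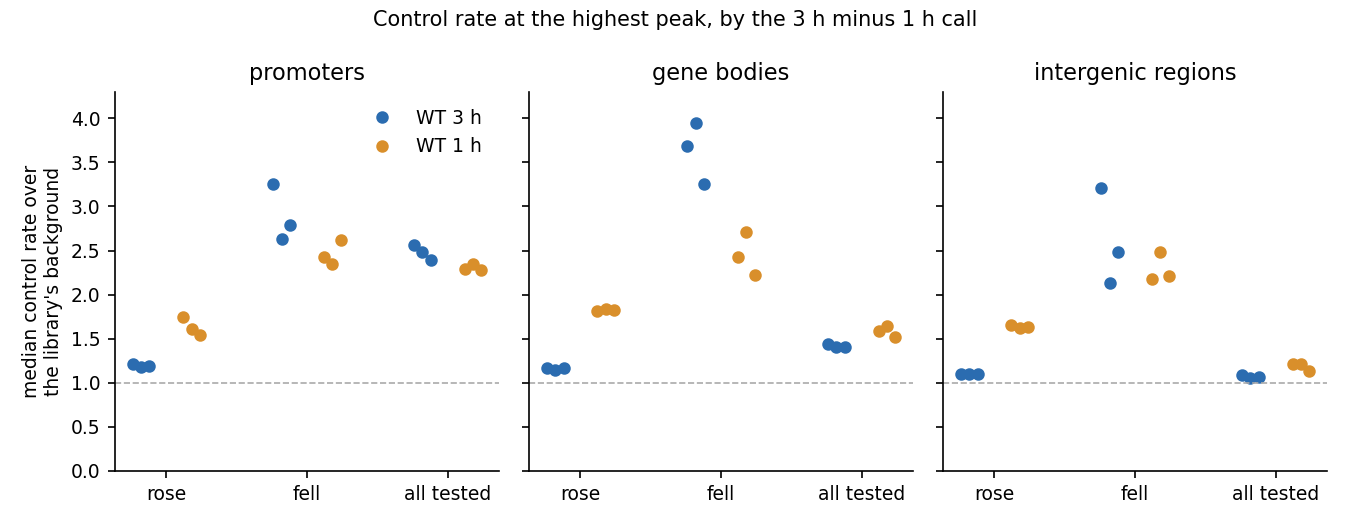
Local control rate over background at features that rose, fell or were tested, per library at 3 h and at 1 h, by class. Rising gene bodies had a median control of 1.14 at 3 h and 1.83 at 1 h, and falling gene bodies 3.45 and 2.36. A control rate at both times was available for 41 of 53 rising and 10 of 16 falling gene bodies.

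At 1 h, 6515 of the 14745 promoters (44.2%) had all 3 libraries above all 3 unirradiated ones. Of these 6515, 148 (2.27%) lay higher still at 3 h without overlap, 1465 (22.5%) lay lower, and 4902 (75.2%) overlapped between the times. Of the 1465, 1101 (16.9% of the 6515) reached into the unirradiated range. The same 1 h libraries select the 6515 and are the reference at 3 h, so the share that lay lower is partly fixed by shared values. Over all promoters tested, 450 (3.05%) had 3 h above 1 h and 1938 (13.1%) had 3 h below. Leaving out 1 library at 3 h gave between 225 and 493 of the 6515 that lay higher still, the highest count without the second library, and between 1668 and 2461 that lay lower. Among the promoters that were above the unirradiated range at 1 h, the largest further rises without overlap were ZNF722, CXCL8, PLD4, TFF2, TEX51 and MCF2L. TFF2, a secreted trefoil peptide of the stomach, held 2.30, 1.46 and 1.87 kb at 3 h, against 1.42, 0.821 and 0.748 kb at 1 h, and 0.195, 0.410 and 0.577 kb without UV (adjusted p = 0.0724). TEX51 held 1.84, 0.623 and 1.39 kb at 3 h, against 0.388, 0.619 and 0.556 kb at 1 h (adjusted p = 0.241). SPTBN5, PRDM14, CHI3L2 and GPRASP1 were among the largest falls. SPTBN5, a beta spectrin, held 1.45, 1.22 and 2.05 kb at 3 h, against 2.66, 2.72 and 2.73 kb at 1 h (adjusted p = 0.205), and GPRASP1 missed the threshold at an adjusted p of 0.0501.

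The promoters were also grouped by their level before irradiation, which does not enter the difference between 3 h and 1 h. Of 902 promoters whose unirradiated WT libraries all had a peak of under 1 kb on average, 3 rose and 0 fell, and of 3176 with 3 kb or more, 0 rose and 4 fell, whereas the 721 with a peak in 1 or 2 of the unirradiated libraries gave 8 rises and 6 falls. The 448 with none gave 3 rises and 8 falls, the 3384 with 1 to 2 kb gave 2 and 3, and the 6114 with 2 to 3 kb gave 1 and 7. Over all promoters 0.115% rose and 0.19% fell, and the groups were not tested against each other. Windows with 3 kb or more have little room to rise in 4 kb: FOS, an immediate early gene, was covered over all 4 kb in all 6 libraries.

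By gene list, NF-kappaB and inflammatory genes showed a positive median. Of 18 members tested, CXCL8 rose and none fell, the median change was 0.192 kb and 72.2% were positive, beside -0.042 kb and 32.5% over all promoters. Of the 18, 5 had 3 h above and 3 had 3 h below 1 h without overlap, beside 3.05% and 13.1% of all promoters. CCL20, a chemokine for dendritic and T cells, held 0.632, 0.693 and 0.539 kb at 3 h and 0 kb in all 3 libraries at 1 h and in all 3 without UV (0.62 kb, SE 0.197, adjusted p = 0.292). In the knockout it held 1.3, 1.3 and 0.193 kb at 3 h and 0 kb at 1 h (0.93 kb, adjusted p = 0.0397). CCL20 did not overlap between the times in either genotype, although its covered length in WT cells missed the threshold; its fold enrichment was called higher (log2 difference 1.66, adjusted p = 0.0129). BIRC3, an inhibitor of apoptosis, had fold enrichments of 14.1, 13.4 and 14.3 at 3 h, against 8.21, 6.52 and 6.49 at 1 h (log2 difference 0.99, adjusted p = 0.00904), with 1.80, 1.26 and 1.5 kb at 3 h, against 1.33, 1.33 and 1.18 kb at 1 h (adjusted p = 0.706). CSF2, a myeloid growth factor, held 1.69, 1.90 and 0.242 kb at 3 h, against 0.655, 1.18 and 0.6 kb at 1 h and overlapped (adjusted p = 0.804).

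Of 28 p53 targets 1 fell (CDKN1A) and none rose, and of 36 nucleotide excision repair genes 1 fell (LIG1) and none rose, beside 0.19% that fell and 0.115% that rose over all promoters. Single calls of this kind are not a result about a list. MDM2, the ubiquitin ligase of p53, held 3.04, 2.94 and 3.04 kb at 3 h, against 2.94, 2.92 and 3.02 kb at 1 h. XPC, which shares its window with LSM3, held 3.02, 3.28 and 3.41 kb at 3 h, against 3.03, 3.19 and 3.17 kb at 1 h (adjusted p = 0.966), and DDB2, the UV damage binding subunit, 2.83, 3.02 and 2.85 kb, against 3.14, 3.12 and 3.00 kb at 1 h (adjusted p = 0.719). Neither repair gene passed. Among 27 H3K4 enzymes and FACT subunits none was called by covered length and 7 had 3 h below and 1 had 3 h above 1 h without overlap, beside 13.1% and 3.05% of all promoters. KMT2C, an MLL-family methyltransferase, held 2.77, 2.18 and 2.11 kb at 3 h, against 3.04, 3.23 and 2.96 kb at 1 h (adjusted p = 0.177), and KMT2B fell in fold enrichment, with 6.89, 7.65 and 6.14 at 3 h, against 14.9, 16.8 and 12.8 at 1 h (log2 difference -1.10, adjusted p = 0.0102). After centring per library BIRC3 and CCL20 were still called higher and KMT2B lower. ASH1L itself held 2.81, 2.77 and 2.78 kb at 3 h, against 2.87, 2.82 and 2.85 kb at 1 h (adjusted p = 0.898). MORF4L1, a chromodomain protein, and the FACT genes SUPT16H and SSRP1 had adjusted p of 0.964, 0.838 and 0.925. None of 17 mesenchymal and osteoblast, 19 neuronal, 9 epithelial, 2 blood and 3 hepatocyte and gut promoters tested was called.

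None of 36 immediate early, 29 HOX, 74 ribosomal protein, 49 replication and cell cycle or 40 histone promoters was called in either direction, and of 50 developmental transcription factors NKX2-2 fell. The median change was -0.060 kb for the developmental factors and -0.024 kb for the ribosomal protein genes, beside the -0.042 kb of all promoters. HOXD11 held 2.24, 2.17 and 2.79 kb at 3 h, against 3.36, 3.16 and 3.24 kb at 1 h (adjusted p = 0.194). ATM, the damage kinase that shares its window with NPAT, was covered over 4 kb in all 3 libraries at 3 h, against 3.8, 3.82 and 3.76 kb at 1 h (adjusted p = 0.0883). At HOXD11 and ATM the groups did not overlap, and neither passed.

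In gene bodies the balance was the other way. Of 12401 gene bodies tested, 53 rose (0.427%) and 16 fell (0.129%), with 670 and 293 at an unadjusted p under 0.05. The 6-library fit called 0 of 12013 in either direction (437 and 219 at an unadjusted p under 0.05). Without the second 3 h library 269 rose and 14 fell, without the second 1 h library 32 rose and 7 fell, and without the third 1 h library 63 rose and 27 fell. A peak only in the high group was behind 5 of the 53 and 4 of the 16. The rising bodies averaged 5.46 kb at 3 h, 2.59 kb at 1 h and 1.27 kb without UV in WT cells, and 0.857 kb at 3 h and 0.910 kb at 1 h in the knockout.

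The 5 largest rises were in CACNA1C, KCNK9, ADCYAP1R1, RET and ADCY5. CACNA1C, which encodes the pore of an L-type calcium channel and has a body of 643 kb on chromosome 12, held 100.2, 70.4 and 79.9 kb at 3 h, against 54.4, 47.0 and 47.3 kb at 1 h, and 24.4, 27.9 and 30.6 kb without UV (33.9 kb, SE 6.16, adjusted p = 0.0226). KCNK9, a potassium leak channel, held 68.2, 54.6 and 54.6 kb at 3 h, against 41.1, 30.4 and 33.7 kb at 1 h (24.1 kb, SE 4.28, adjusted p = 0.0202). ADCYAP1R1, the receptor of the neuropeptide PACAP, held 13.6, 11.3 and 18.2 kb at 3 h, against 5.30, 2.70 and 4.44 kb at 1 h (10.2 kb, SE 1.31, adjusted p = 0.00395). In all 3 every library at 3 h lay above every library at 1 h. Each SE uses the spread shared by all 6 groups and can understate the spread at 3 h. The SD of CACNA1C was 15.2 kb at 3 h and 4.20 kb at 1 h, against 5.50 and 5.76 kb in the knockout. That of ADCYAP1R1 was 3.53 and 1.33 kb, against 0.200 and 0.576 kb in the knockout. RET, the receptor tyrosine kinase for GDNF ligands, held 7.56, 4.83 and 10.2 kb at 3 h, against 2.03, 1.79 and 2.18 kb at 1 h (adjusted p = 0.00852), and the adenylyl cyclase ADCY5 held 8.49, 4.08 and 6.30 kb, against 0.992, 0.474 and 2.04 kb at 1 h (adjusted p = 0.00609). The calls of KCNK9, RET and ADCY5 ended when peaks had to pass at the higher of both control rates, and that of KCNK9 also with coverage scaled to an equal total. In the knockout CACNA1C averaged 14.1 kb at 3 h and 15.1 kb at 1 h, and the difference between the genotypes did not pass (adjusted p = 0.188). Without UV the 5 bodies, in the order named, averaged 22.7, 32.2, 4.36, 1.31 and 2.5 kb in the knockout. In unirradiated WT cells they averaged 27.6, 14.8, 2.05, 0.915 and 0.223 kb, so the knockout was marked at these bodies before UV.

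GPC1, a cell-surface proteoglycan, fell to 3.64, 3.37 and 3.37 kb at 3 h, against 5.83, 5.47 and 4.97 kb at 1 h, and 2.86, 3.09 and 2.83 kb without UV (-1.97 kb, SE 0.297, adjusted p = 0.00626). GLIS2, a zinc finger factor whose body overlaps PAM16, held 0.822, 0.773 and 0.812 kb at 3 h, against 2.76, 1.95 and 2.77 kb at 1 h (-1.69 kb, SE 0.234, adjusted p = 0.00485) and fell in the knockout too (-1.58 kb, adjusted p = 0.0156). BOP1, a ribosome biogenesis factor, held 0.729, 0.921 and 1.94 kb at 3 h, against 3.69, 2.74 and 3.51 kb at 1 h (adjusted p = 0.0430). In these 3 bodies every 3 h library lay below every 1 h library. The ephrin EFNA2 fell by 1.25 kb (adjusted p = 0.0496) and TMC4 by 0.991 kb (adjusted p = 0.0227). The calls of BOP1 and EFNA2 ended when peaks had to pass at the higher of both control rates. They held in 5 of 15 alternatives for BOP1 and 6 of 15 for EFNA2.

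Over the gene lists, 1 of 9 NF-kappaB gene bodies rose, TNFAIP3, with 88.9% of the 9 positive, beside 54.5% of all bodies, and 1 of 33 developmental factors, ALX4, with no fall in either list, beside 0.427% that rose and 0.129% that fell over all bodies. TNFAIP3, which encodes the NF-kappaB inhibitor A20, held 4.58, 3.27 and 2.81 kb at 3 h, against 0.384, 0.408 and 0.176 kb at 1 h, and 0.268, 0 and 0 kb without UV (3.23 kb, SE 0.388, adjusted p = 0.00224). The knockout held 4.14, 3.00 and 2.69 kb at 3 h, against 0.393, 0.158 and 0 kb at 1 h (3.09 kb, adjusted p = 0.00762). TNFAIP3 thus rose in both genotypes, past the end of its promoter window. TNFRSF9, IRF1 and MAFF were picked after their values were seen. TNFRSF9, a co-stimulatory receptor, held 0.609, 0.612 and 0.606 kb at 3 h, against 0, 0 and 0.212 kb at 1 h (adjusted p = 0.00626), and in the knockout rose by 0.518 kb (adjusted p = 0.0174). The interferon regulator IRF1, whose body overlaps an unnamed gene, held 2.23, 1.67 and 2.60 kb at 3 h, against 0.618, 0.616 and 1.06 kb at 1 h (adjusted p = 0.00852), and the small Maf factor MAFF 1.53, 1.32 and 2.23 kb, against 0.029, 0.756 and 0.415 kb at 1 h (adjusted p = 0.0103). In the knockout IRF1 and MAFF changed by 0.192 and 0.381 kb (adjusted p = 0.870 and 0.553).

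Intergenic regions carried most of the calls. Of 70414 tested, 1319 rose (1.87%) and 214 fell (0.304%), with 6928 and 1430 at an unadjusted p under 0.05, and the 6-library fit called 0 of 64930 (4127 and 653 at an unadjusted p under 0.05). Without the second 3 h library 3246 rose, and without the second 1 h library 788. A peak only in the high group was behind 266 of the 1319 and 84 of the 214. The rising regions averaged 0.940 kb at 3 h, 0.234 kb at 1 h and 0.134 kb without UV, and 55.9% had no peak in any unirradiated WT library. In the knockout they averaged 0.0737 kb at 3 h and 0.0851 kb at 1 h. The falling regions averaged 0.0391 kb at 3 h, 0.475 kb at 1 h and 0.0443 kb without UV.

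The largest rise, at chr12:34378375-34408105, 371 kb from ALG10, held 28.1, 22.9 and 26.8 kb at 3 h, against 15.4, 13.6 and 13.7 kb at 1 h, and 6.37, 4.26 and 7.78 kb without UV (11.7 kb, SE 1.25, adjusted p = 0.000115). In the knockout it averaged 2.17 kb at 3 h, 3.57 kb at 1 h and 4.58 kb without UV, and the changes differed (13.1 kb, adjusted p = 0.00593). A neighbour at chr12:34315502-34322616 held 6.79, 4.83 and 6.48 kb at 3 h, against 3.29, 1.91 and 2.54 kb at 1 h (adjusted p = 0.000450). Both regions rose in every WT library over every 1 h library. The region at chr8:46373014-46395829 held 18.7, 15.6 and 19.0 kb at 3 h, against 6.24, 10.1 and 11.8 kb at 1 h (adjusted p = 0.00863). Without UV this chr8 region averaged 5.27 kb in WT cells and 7.79 kb in the knockout. Regions at chr10:43861514-43870508, in LINC00840, and chr8:141770476-141777617 rose by 4.65 and 3.76 kb (adjusted p = 0.0387 and 0.00698).

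Among the falls, chr17:48641085-48642500, in LINC03057 and 15.4 kb from HOXB9, held 0, 0 and 0 kb at 3 h, against 0.810, 1.42 and 0.766 kb at 1 h, and none without UV or in any irradiated knockout library (-0.997 kb, SE 0.122, adjusted p = 0.000325). The region at chr9:87942610-87946054 held none at 3 h, against 0.846, 0.799 and 1.53 kb at 1 h (adjusted p = 0.0392). In the knockout it stayed marked, with 2.13, 2.24 and 2.07 kb at 3 h, against 2.59, 3.05 and 2.75 kb at 1 h. Regions at chr4:45207093-45208461 and chr12:12882457-12884016, 8.32 kb from GPRC5A, fell by 0.961 and 0.919 kb (adjusted p = 0.00182 and 0.0438), and chr22:29456178-29457396, in RFPL1S, fell by 0.889 kb (adjusted p = 0.00538).

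Rising and falling regions differed in base composition and place, which the calls did not use. The rising regions had a median GC content of 53.5% and the falling ones 61.8%, beside 45.7% over all regions tested, and a median observed over expected CpG of 0.213 and 0.415, beside 0.167. Of the rising regions 37.5% (494) lay within 10 Mb of a chromosome end and of the falling ones 27.6% (59), beside 19.0% of all tested. Chromosome 22 had the highest share of rising regions, 5.56%, and chromosome X the lowest, 0.83%. These shares are descriptions, since neighbouring regions share a library and a control.

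The merged peaks of all 18 lists were also used in all 3 classes. A region counted as present in a group with a peak in at least 2 of its 3 libraries. Of 26607 regions that were absent without UV and present at 1 h, 17778 (66.8%) were kept at 3 h and 8829 had returned, and another 17827 appeared at 3 h only, 50.1% of the 35605 new at that time. The share kept was 64.7% in promoters, 66.1% in gene bodies and 67.4% in intergenic DNA. These regions were selected by their peaks at 1 h, so part of the returned share is fixed by that selection. Leaving out 1 library at 3 h gave shares between 43.1% and 56.8%, and leaving out 1 at 1 h between 72.2% and 77.9%, as a group of 2 had to be marked in both. Late promoter regions had a median GC content of 52.6% and an observed over expected CpG of 0.251, and returned ones 60.7% and 0.564. No knockout library had a peak in 12.8% of kept, 32.7% of returned and 33.6% of late regions. The same held for 33.2% of regions present without UV and absent at 1 h and 3 h. It was 12.2% where only 3 h was absent, 10.3% where only 1 h was absent, and 1.41% of regions present in all 3 WT groups. Shares of this size are thus not particular to regions gained after UV.

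The longest kept promoter regions lay at CD59, a complement inhibitor that shares the region with ENSG00000284969, at CYP1B1, an oxidase of xenobiotics and estrogens, and at NKX2-6. CYP1B1 held 2548, 1770 and 2384 bp at 3 h, against 2565, 2863 and 1637 bp at 1 h, and 0, 0 and 855 bp without UV. In gene bodies GAS6, a ligand of TAM receptors, kept 6176, 5288 and 7307 bp at 3 h, against 6074, 4780 and 6172 bp at 1 h. Both regions overlapped in length between the times. PRDM14 and CHI3L2 were among the longest returned promoters, and the longest late ones were TNF, C8orf90 and POU3F4. At TNF, which encodes the cytokine tumour necrosis factor, the region chr6:31575652-31577772 held 2121, 1121 and 0 bp at 3 h and none at 1 h, without UV or in any knockout library. Within RET a late region held 2092, 1110 and 3257 bp at 3 h and none at 1 h, and within ADCYAP1R1 1998, 1534 and 1939 bp at 3 h and none at 1 h.

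**Figure D5:**
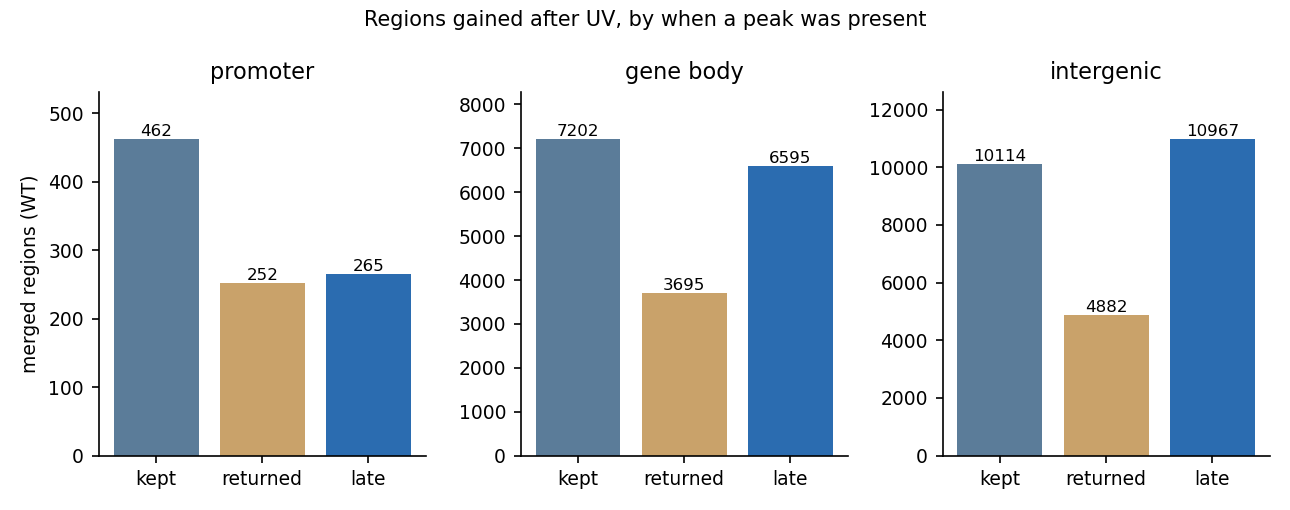
Number of merged regions absent without UV that were kept, returned or late in WT cells, by class. Kept regions number 17778, returned 8829 and late 17827 in all, most of them in intergenic DNA and gene bodies.

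XPC peaks, a readout that the patterns did not use, covered the kept regions 2.32 times as densely as the genome at 3 h and 2.34 times at 1 h, the returned regions 2.0 and 2.03 times, and the late regions 2.2 and 2.24 times (exact permutation p = 1, 1 and 0.8). Without UV the kept, returned and late regions gave 2.02, 1.99 and 1.80 times, and regions constant in all 3 WT groups gave 2.25 at 3 h and 2.10 at 1 h. The density is thus not particular to regions gained after UV. Over kept regions the 1 h libraries gave 2.45, 1.57 and 3.01 times. The WT XPC lists held 500000 peaks each, except the third at 1 h with 360980. The density of XPC peaks over these regions differed by less between the times than between XPC libraries.

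The change between 3 h and 1 h was also set against that in the ASH1L knockout. It differed at 6 promoters (0.0407% of 14745), 5 gene bodies (0.0403%) and 186 intergenic regions (0.264%). In the knockout itself 8 promoters rose and 109 fell, 12 gene bodies rose and 17 fell, and 26 intergenic regions rose and 12 fell. PER1, a clock gene, held 3.69, 3.61 and 4.0 kb at 3 h, against 3.66, 3.28 and 3.12 kb at 1 h in WT cells (adjusted p = 0.481), and in the knockout 2.23, 1.88 and 2.16 kb at 3 h, against 3.03, 3.17 and 3.14 kb at 1 h (-1.03 kb, adjusted p = 0.0140). The difference at PER1 thus came with a fall in the knockout. At SLC35D3, PRDM14 and CPXCR1 no knockout library had a peak, so the difference repeats the fall in WT cells.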

How the data were processed

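H3K4me3 ChIP-seq of WT and ASH1L knockout U2OS cells was deposited as 1 list of narrow peaks per library (100 bp single-end reads, PreCR repair before library preparation). The authors trimmed with Trim Galore 0.6.5, aligned to hg38 with BWA 0.7.17-r1188, used Picard, SAMtools 1.7 and bedtools 2.29.2, and called peaks against pooled input with MACS2 2.2.7.1 at p of 0.01, per the labels and the study's methods. The deposited values are peak positions (other), the fold enrichment ratio at the summit, and −log10 p and −log10 q, which the authors' caller wrote. Read counts are not in these files. Chromosome Y was left out.

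Peaks were placed on 19970 protein-coding start sites and 17699 gene bodies of GENCODE 44. The 159247 intergenic regions were merged peaks of all 18 H3K4me3 lists that lay outside promoters and gene bodies. Covered length was fitted with limma 3.58.1 (R 4.3.3; group means over 18 libraries, trend and robust, features covered in at least 3 libraries, Benjamini-Hochberg adjustment, threshold 0.05). Class totals were compared by exact permutation tests (Python 3.11.15, numpy 2.4.6, pandas 2.3.3, scipy 1.17.1, matplotlib 3.10.9). The fold enrichment, as (pileup + 1)/(control + 1), and the Poisson p were solved for the pileup and control at each summit, which gave the background depth. Of the XPC lists, those of WT cells were used for positions and those of knockout cells were not used here. The limma script was tested on simulated data.

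Named were the 10 promoters and 5 gene bodies or regions with the largest change in each direction among those called, 6 promoters each that went furthest or came back after 1 h, the 3 longest regions per pattern and class, up to 3 members per gene list, and ASH1L, MORF4L1, SUPT16H, SSRP1, XPC and DDB2, besides the names of called features. Some genes that this rule names are not reported here. The members, gene lists and names were chosen with earlier results of these data known. Alternatives were other peak thresholds, windows, scalings, filters, left-out libraries and a replicate block. Counting error sets the precision of each peak, and the libraries' depth was 2.57 to 4.40 background reads per position in irradiated WT cells.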

Additional observations from a re-analysis of the deposited data

Results flagged for a closer look

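The change between 3 h and 1 h differed between WT and ASH1L knockout cells at 6 promoters, 5 gene bodies and 186 intergenic regions (limma contrast over 18 libraries, values are the change in WT minus the change in the knockout). The promoters were SLC35D3 (-0.835 kb, adjusted p = 0.00165), PRDM14 (-1.02 kb, 0.0495), CPXCR1 (-0.565 kb, 0.0495), CTSV (1.22 kb, 0.0495), CALCB (2.01 kb, 0.0219) and PER1 (1.44 kb, 0.0495). SLC35D3 had a peak in the 3 WT libraries at 1 h alone, so it passed the filter only through these, and its value repeats its fall in WT cells. CTSV, a lysosomal protease, held 2.45, 2.54 and 2.52 kb at 3 h, against 1.7, 1.82 and 2.08 kb at 1 h in WT cells, and in the knockout 1.87, 1.63 and 2.23 kb at 3 h, against 2.50, 2.70 and 2.29 kb at 1 h. Neither change passed on its own (adjusted p = 0.0743 in WT cells and 0.0629 in the knockout).

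The gene bodies were FBLN7 (1.04 kb, adjusted p = 0.00514), MYLK2 (0.615 kb, 0.00514), GFRA2 (1.2 kb, 0.0130), MPO (1.86 kb, 0.0168) and KDELR2 (-1.48 kb, 0.0270). MPO, the myeloperoxidase gene, held 2.18, 1.39 and 2.30 kb at 3 h, against 0.290, 0 and 0 kb at 1 h in WT cells, and 0 kb in the irradiated knockout libraries. Without UV the MPO body held 0.430, 0.447 and 0 kb in the knockout and 0 kb in WT cells. GFRA2, a co-receptor of GDNF-family ligands, held 1.04, 1.04 and 1.52 kb at 3 h and 0 kb at 1 h. KDELR2, a retrieval receptor of the endoplasmic reticulum, held 0.089, 0.001 and 0.422 kb at 3 h, against 0.764, 1.07 and 0.867 kb at 1 h in WT cells, and in the knockout 1.62, 1.35 and 1.38 kb at 3 h, against 0.540, 0.890 and 0.655 kb at 1 h.

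Of the 186 intergenic regions, the 5 with the largest difference started at chr12:34378375 (13.1 kb, adjusted p = 0.00593), chr10:42876990 (5.06 kb, 0.0393), chr12:34315502 (3.86 kb, 0.0156), chr8:135669075 (3.34 kb, 0.0218) and chr10:37700371 (3.24 kb, 0.0194). The chr10:42876990 region held 8.56, 7.22 and 8.83 kb at 3 h, against 5.62, 3.39 and 5.67 kb at 1 h in WT cells, and in the knockout 0, 0.246 and 0 kb at 3 h, against 1.92, 2.86 and 0.726 kb at 1 h. With the replicate block, 2 promoters, 12 gene bodies and 120 intergenic regions differed between the genotypes.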

How the results depend on the processing

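Limits: with 3 libraries a group no class total can reach an exact p below 0.1, the calls rest on a spread shared by 6 groups, and time and control profile cannot be told apart. Depth limits low peaks most, and the second 3 h library was the shallowest.

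The fit of 6 libraries called 0 rises and 0 falls in promoters, gene bodies and intergenic regions. Fewer samples entered that fit, and its spread came from these 6 libraries alone. Peaks of at least 5-fold enrichment gave 10 promoter rises, 59 falls and 507 differences from the knockout, 156, 50 and 177 for gene bodies, 533 intergenic rises and 632 differences, and 3864 kept, 1707 returned and 3650 late regions. They turned the promoter peak number ratio to 0.988 and gave 0.017 kb for BOP1 and 0.0743 kb for GPC1. A window of 1 kb each side gave 10 promoter rises, 47 falls and 87 differences. The log2 fold enrichment gave 126, 1301 and 1238, and turned CDKN1A (0.0816), MCF2L (-0.68) and NKX2-2 (0.0689). Centred, it gave 1588, 894 and 2153. The pileup gave 1, 11 and 10, and centred 1, 6 and 1. Coverage scaled to an equal total moved the median promoter change to -0.227 kb, left 476 intergenic rises and 86 falls, and gave 19, 12 and 42 differences from the knockout in promoters, gene bodies and intergenic regions. An equal number of peaks gave 15 and 29 differences in promoters and gene bodies, 659 intergenic rises, 8464 kept and 7347 late regions, a gene body peak number ratio of 0.960, and -0.0497 kb for NKX2-6. Peaks that pass at the lowest depth gave 83 gene body rises and 27 differences, and those that pass at the higher control rate 30 gene body rises and 115 intergenic differences, both chosen after seeing the data, as were the centred and pileup values. Features covered in at least 1 library gave 8 gene body and 357 intergenic differences, and a −log10 q of at least 1.3 gave 12 gene body differences. Present in 3 of 3 gave 1582 kept, 337 returned and 1176 late regions. The cause of these shifts was not tested.

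Leaving out each library in turn gave peak number ratios of 1.03 to 1.06 (promoters), 1.02 to 1.19 (gene bodies) and 1.08 to 1.28 (intergenic), and covered DNA ratios of 0.966 to 0.995, 0.999 to 1.22 and 1.10 to 1.35. It gave 9 to 39 promoter rises, 8 to 42 falls and 1 to 15 differences, 32 to 269, 7 to 27 and 2 to 108 for gene bodies, 788 to 3246, 196 to 261 and 98 to 832 for intergenic regions, and 10419 to 15125 kept, 2964 to 15134 returned and 7310 to 25186 late regions. Without the second 3 h library 39 promoters rose and 12 fell, and without the first 1 h library 9 and 8.

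The replicate numbers share no stated batch, so same-numbered libraries were not taken as pairs in the main fit. Their deviations correlated at 0.04, 0.10 and 0.22 in promoters and at -0.12, 0.87 and 0.91 in gene bodies. In intergenic regions the values were -0.05, 0.28 and 0.36. Crossed pairs of replicates 2 and 3 gave -0.90 and -0.89 in gene bodies. A shared replicate effect was not tested beyond the replicate block. With the replicate block 16 promoters rose and 23 fell, 73 and 18 gene bodies, and 1300 and 188 intergenic regions, and 2, 12 and 120 differed from the knockout. Called in 14 of 15 alternatives were SLC35D3, PRDM14, CPXCR1, ELL3 and PTCHD3, each lost in the fit of 6 libraries. None of these had a peak in an irradiated knockout library, and SLC35D3, CPXCR1 and PTCHD3 had none at 3 h. Values at 0 in whole groups keep the shared spread small, so these counts are no measure of robustness. CXCL8 was called in 14 of 16, ZNF722 in 13 of 15, CALCB and CACNA1C in 11 of 15, CDKN1A in 10 of 16 and BOP1 in 5 of 15. FOXI2 (3 of 15), SCAMP1 (4 of 16) and NKX2-6 (4 of 15) held least often among the named promoters that were called.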

Other observations

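Some regions went the other way at 1 h. In WT cells 3494 regions were present without UV, absent at 1 h and present at 3 h, 33 of them in promoters, and their median GC content was 42.9%, beside 48.6% for kept regions. By number, the most rising intergenic regions lay in 2 windows of 5 Mb: 48 of the 455 tested between 45 and 50 Mb of chromosome 22 rose (10.5%), and 42 of 474 between 130 and 135 Mb of chromosome 10 (8.86%), beside 1.87% of all regions tested. These windows were picked after their values were seen.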
